A study of Mus musculus with 16 samples.

Results

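T cells labelled CD4+ and carrying MALT1 isoform A were compared with and without CD3/CD28 stimulation, which engages the signalling complex of the T cell receptor together with CD28, a costimulatory receptor. The arrays were chosen by their titles, which gave 4 stimulated and 4 unstimulated isoform A arrays of 16 in the series. All cells came from MALT1-deficient mice on a C57BL/6 background, so that the only MALT1 intended to be present in them was the isoform A delivered by a retrovirus. The stimulated cells had 2.5 h of CD3/CD28 stimulation, and the unstimulated cells had none. The cells of each of 4 mice gave 1 array per condition. The share of cells that took up the retrovirus is not given in the sources used here. The other 8 arrays were isoform B cells and mock-transduced cells, 4 of each, all stimulated. No unstimulated isoform B or mock array was used here, so the stimulation response could be measured in isoform A cells alone and at 1 time. The title of the study concerns receptor-induced alternative splicing of MALT1, and the comparison describes what the receptor signal does to the transcriptome of cells whose MALT1 is isoform A.

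MALT1 is a scaffold and protease that carries the signal of the T cell receptor, through CARMA1 and BCL10, to the IKK complex and NF-kB. The same receptor also opens calcium entry through STIM and ORAI proteins, which activates NFAT, and switches on the MAP kinase cascades, which induce AP-1 and EGR factors. A resting T cell is held in quiescence by factors such as KLF2. On activation it first makes transcripts of signalling and effector genes and of the machinery of protein synthesis, and enters S phase many hours later. Cytokine, chemokine and TNF family ligand genes are the best-known part of this response, and the description here is of the remainder. The unstimulated cells of this study had been through retroviral transduction, and whether they were at rest was not tested.

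On 8480 genes with a detected probe, 2675 rose and 3264 fell in stimulated against unstimulated cells (limma, adjusted p under 0.05, with the mouse as a block), which is 31.5% and 38.5% of the genes tested. Together 70% of genes passed, which is the background against which the counts of each gene group below are to be read. Of the rises, 165 were of genes above background on no unstimulated array, and 336 of the falls were of genes above background on no stimulated array. The sizes of these changes are uncertain. Probes were kept if detected on at least 4 arrays of the whole series, in which most arrays were stimulated. A gene detected only in unstimulated cells thus had to be detected on all 4 of their arrays. The 4 stimulated arrays did not overlap the 4 unstimulated arrays for 61.5% of genes. Most changes were small, with a median of 0.84 on the log2 scale for genes that rose and -0.87 for genes that fell, and 1125 genes rose and 1409 fell by at least 1. At the extremes the rises outnumbered the falls: 56 genes rose and 19 fell by at least 4, and 30 rose and 3 fell by at least 5. Ligand genes here are the 51 genes of a list of cytokine, chemokine and TNF family ligands. They made up 11 of the 30 rises of at least 5, 20 of the 132 rises of at least 3 and 25 of the 346 rises of at least 2. The other 19, 112 and 321 genes of these classes were outside that list. It does not hold every ligand: the growth factor gene Hbegf, described below, is not on it.

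**Figure D1:**
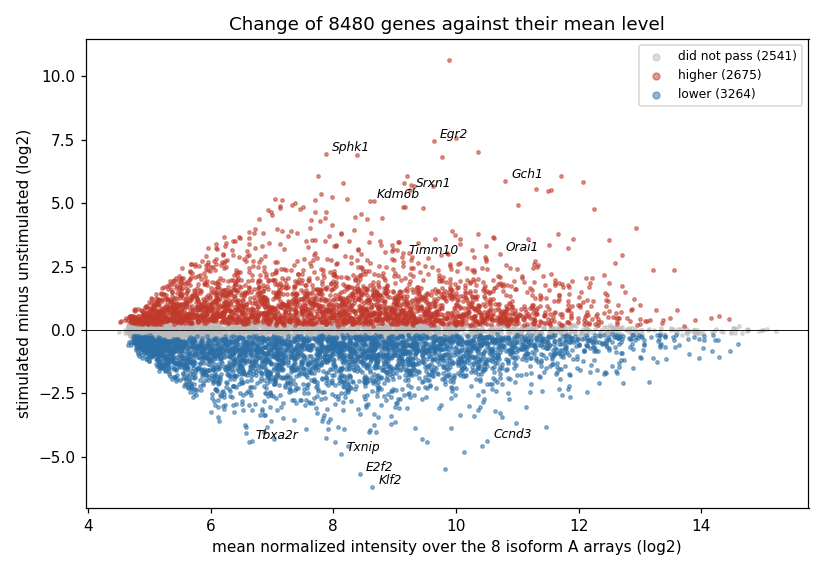
Each point is 1 of 8480 genes, with its mean normalized intensity over the 8 isoform A arrays (log2) across and its change, stimulated minus unstimulated (log2), up the page. Red points rose (2675), blue points fell (3264) and grey points did not pass. The rises extend further from 0 than the falls, and large changes occur from dim to bright genes.

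All 9 T cell markers on the array were detected on all 8 arrays, with a summed raw intensity of 41337 to 49501 in stimulated cells and 53558 to 60512 in unstimulated cells. Cd3d, Cd3e and Cd3g, which encode the signalling chains of the receptor, fell by 0.60, 0.59 and 0.65. Cd4 differed by -0.13 ± 0.19 (adjusted p = 0.557), a call that depended on scaling, and its probe was dim, with raw intensities of 202 to 231 in stimulated cells and 239 to 337 in unstimulated cells. Besides Cd4, the T cell markers are shared with CD8 cells, so they show T cells and do not bear out the CD4+ label. None of 7 macrophage and dendritic cell markers was detected on any array, and none of 6 B cell markers was detected on all 8, with a summed raw intensity of 743 to 787 in stimulated cells and 780 to 861 in unstimulated cells. Cd79b was above background on 4 of 4 unstimulated arrays (raw 142 to 173) and on 0 of 4 stimulated arrays (120 to 133). Ms4a1 was above background on 4 of 4 unstimulated and 2 of 4 stimulated arrays. Of 8 CD8 and NK cell markers, Cd8b1, Klrd1 and Eomes were detected on all 8 arrays and Cd8a and Ncr1 on none, with sums of 5254 to 6647 in stimulated cells and 6146 to 8769 in unstimulated cells. Cd8b1 had raw intensities of 3070 to 4179 in stimulated cells and 2789 to 4383 in unstimulated cells. It differed by 0.04 ± 0.08, and Klrd1 fell by 0.61 ± 0.11. Erythroid Hba-a1 was detected on all 8 arrays, while Alas2, Epor and Slc4a1 were not. The part of such cells in the results below was not tested. The probe of Malt1 was above background on 1 of 4 stimulated and 1 of 4 unstimulated arrays, and it is not known here whether the transgene holds its sequence, so it is no check of the labels. Between 10327 and 10641 of 25697 probes were detected on stimulated arrays and between 11239 and 12085 on unstimulated arrays. Arrays of mice 1 and 2 differed from those of mice 3 and 4 in their highest raw intensity, 34329 to 35577 against 42313 to 43710, a split that crosses both conditions. In a bulk sample a change in the RNA per cell cannot be told apart from a change in the share of cells that express a gene. The number of arrays limits the precision, and errors after ± are standard errors of the fit with 4 mice per condition.

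The largest rise outside the ligand list was that of Egr2, a zinc finger transcription factor of the early growth response family. Its normalized intensity on the log2 scale was 13.43, 13.40, 13.31 and 13.36 in the stimulated cells of mice 1 to 4, and 5.72, 5.48, 6.38 and 6.06 in their unstimulated cells. All stimulated values were higher and the groups did not overlap. The rise was 7.47 ± 0.15, or 177-fold. RefSeq lists 5 start sites for the gene, and the promoter of one of them, at chr10:67537620-67537919 (GRCm38.p6, plus strand), is shown because it holds a CArG box, the site bound by serum response factor, that begins 73 bases before the start. The window runs from 250 bases before to 50 bases after the start, 5′ to 3′, with the motif in capitals.
Egr2: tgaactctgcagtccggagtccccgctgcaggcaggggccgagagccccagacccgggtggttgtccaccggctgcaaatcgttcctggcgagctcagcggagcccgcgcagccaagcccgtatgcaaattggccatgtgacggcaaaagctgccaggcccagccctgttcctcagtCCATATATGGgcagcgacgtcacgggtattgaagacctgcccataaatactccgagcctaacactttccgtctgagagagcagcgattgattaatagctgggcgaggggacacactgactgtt

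Sphk1, the kinase that makes sphingosine 1-phosphate, followed. Its values were 11.25, 11.33, 11.30 and 11.54 in stimulated cells and 4.57, 4.44, 4.32 and 4.33 in unstimulated cells. It was not above background on any unstimulated array and was at least 90.7-fold higher in stimulated cells. Gch1, the GTP cyclohydrolase that begins tetrahydrobiopterin synthesis, was at 13.76, 13.80, 13.61 and 13.79 in stimulated cells and at 7.93, 7.60, 8.02 and 7.90 in unstimulated cells. The groups did not overlap, and the rise was 58.9-fold. The only RefSeq promoter of Gch1, at chr14:47189364-47189663 (GRCm38.p6, minus strand, shown in the direction of the gene), holds a match to a kappaB site, the kind bound by NF-kB, that begins 10 bases before the start. Such a match stood in 12.3% of the 219 single promoters of genes that rose by at least 2, in 6.7% of the 209 of genes that fell by at least 2 and in 9.78% of the 5500 of all genes tested.
Gch1: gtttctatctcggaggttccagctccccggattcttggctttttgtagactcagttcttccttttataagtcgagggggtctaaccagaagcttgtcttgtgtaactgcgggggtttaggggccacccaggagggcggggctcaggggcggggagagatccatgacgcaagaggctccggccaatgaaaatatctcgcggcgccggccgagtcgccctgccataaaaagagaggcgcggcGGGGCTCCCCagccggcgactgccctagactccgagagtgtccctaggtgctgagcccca

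Others of the 12 largest rises had roles in signalling and in the cell surface. Rgs16, which shortens signalling by G proteins, rose 66.9-fold, with 12.47, 12.39, 12.10 and 12.02 in stimulated cells and 6.02, 5.68, 6.64 and 6.38 in unstimulated cells. Pou2af1, a transcriptional coactivator best known from B cells, rose 55.6-fold while the B cell markers stayed near background: it was at 12.07, 12.30, 11.91 and 11.95 in stimulated cells and at 6.17, 6.37, 6.18 and 6.32 in unstimulated cells. The growth factor gene Hbegf rose 56.1-fold, the semaphorin gene Sema7a 52.4-fold, the sulfotransferase gene Chst2 51.4-fold, Phlda1 50.8-fold and the sulfiredoxin gene Srxn1, whose product reactivates oxidized peroxiredoxins, 45.7-fold. Bdh2, a dehydrogenase gene, rose 67.9-fold but was above background on 1 of 4 unstimulated arrays, so its fold is uncertain. The transcript 1810009J06Rik rose 121-fold. No group of 4 arrays overlapped the other for any of these genes.

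The largest falls were led by Klf2, the quiescence and homing factor. Its values were 5.76, 5.55, 5.63 and 5.28 in stimulated cells and 11.76, 11.96, 11.55 and 11.63 in unstimulated cells, a change of -6.17 ± 0.13 (71.9-fold). E2f2, an E2F family transcription factor that acts at the G1 to S transition, was at 5.91, 5.73, 5.14 and 5.61 in stimulated cells and at 11.12, 11.39, 11.26 and 11.31 in unstimulated cells. It was lower on every stimulated array, by 51.1-fold. Txnip, which binds thioredoxin and limits glucose uptake, was at 5.80, 5.87, 5.54 and 5.48 in stimulated cells and at 10.82, 10.80, 10.30 and 10.35 in unstimulated cells, 29.7-fold lower. The cyclin gene Ccnd3 was at 8.53, 7.99, 8.25 and 8.53 in stimulated cells and at 12.73, 12.74, 12.62 and 12.70 in unstimulated cells, 20.7-fold lower. Tbxa2r, the thromboxane receptor, was not above background on any stimulated array and was at least 14.2-fold lower in stimulated cells. The uncharacterized BC147527 was likewise at least 14.5-fold lower. Fam78a fell 44.6-fold, Ypel3 28.3-fold, the tetraspanin gene Tspan32 23.8-fold, the RAB GTPase-activating protein gene Tbc1d10c 23.8-fold, Pxylp1, a phosphatase of proteoglycan synthesis, 21.3-fold and AI467606 21.1-fold. The highest adjusted p among the 24 genes of both lists was 1.13e-10 (limma). These genes were picked as the largest changes past the threshold, so this value and the lack of overlap are not separate support for them.

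**Figure D2:**
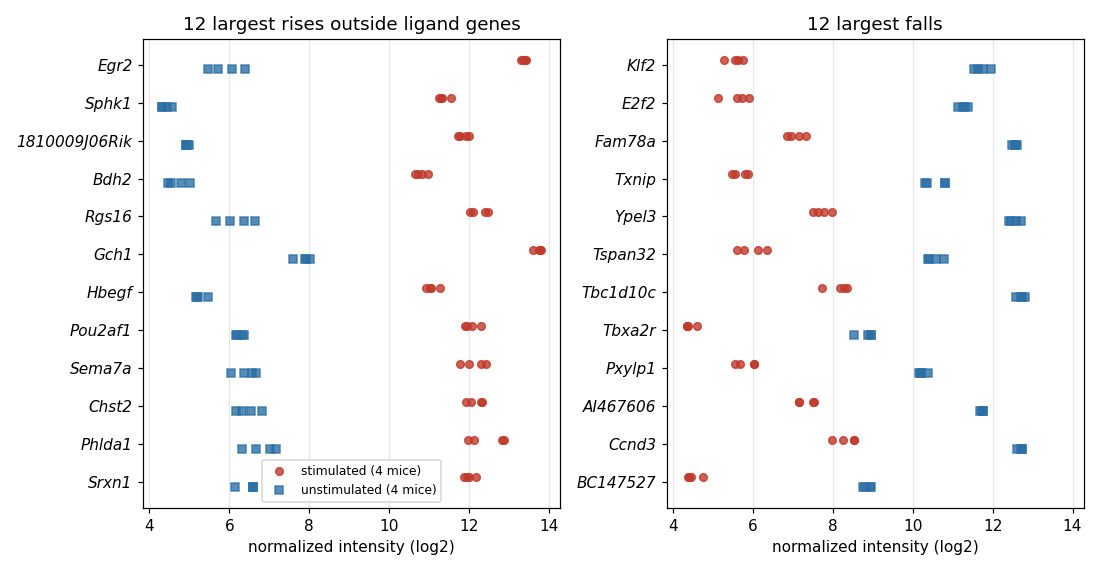
Normalized intensity (log2) of the 12 largest rises outside the ligand genes (left) and the 12 largest falls (right) in each array. Red circles are the 4 stimulated arrays and blue squares the 4 unstimulated arrays. In no gene do the groups overlap, and for Egr2 the stimulated arrays lie between 13.31 and 13.43.

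Among these 24 genes, 6 also differed between isoform A and mock cells after stimulation, where 8.79% of all genes did. Sphk1 was 0.74 ± 0.14 (adjusted p = 0.00449), Phlda1 0.52 ± 0.11 (adjusted p = 0.0115) and Hbegf 0.48 ± 0.11 (adjusted p = 0.0125) higher in isoform A than in mock cells. AI467606 was lower in isoform A than in mock cells (-0.85 ± 0.12, adjusted p = 0.000938), as were E2f2 (-0.63 ± 0.14, adjusted p = 0.0151) and Fam78a (-0.42 ± 0.11, adjusted p = 0.0351). Egr2 differed from mock by 0.00 ± 0.15 (adjusted p = 0.993). Between isoform A and isoform B, where 0.542% of all genes differed, the lowest adjusted p of the 24 was 0.337 (limma). The erythroid marker Hba-a1 was also lower in isoform A than in mock cells (-2.32 ± 0.39, adjusted p = 0.00233), at a mean of 5.86 in isoform A and 8.18 in mock cells, and its part in the differences from mock was not tested. Comparisons with mock and with unstimulated cells share the 4 stimulated isoform A arrays.

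The next results go through 27 gene groups with 638 distinct measured members, of which 258 rose, 238 fell and 142 did not pass. Genes named in each group are up to 4 with the largest changes, and others are named as chosen after their values were seen. A different scaling matters for the groups whose changes are small: with arrays scaled to a common median, the median change of all genes was -0.22 in place of -0.02, and 1866 genes were higher and 3940 lower. Where that moved a group's count by more than 1.5 times, the count is given. Some named genes were detected on part of the dimmer group's arrays: Erf, Rarg, Alcam and Dis3 on 2 of 4 unstimulated arrays, Npas2 and Itga3 on 3 of 4, and Tpx2 and Kat2b on 2 of 4 stimulated arrays.

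**Figure D3:**
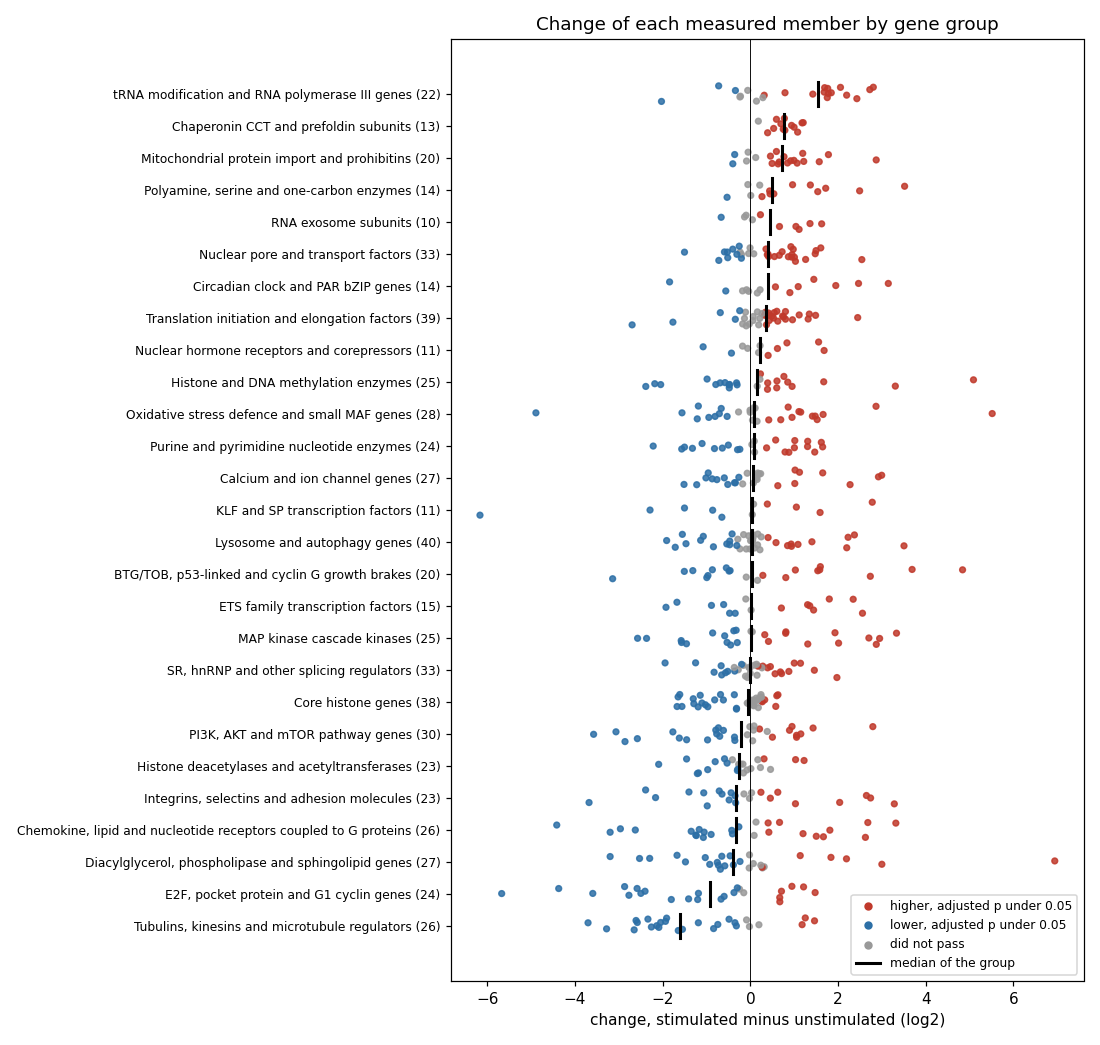
Change of each measured member, stimulated minus unstimulated (log2), in 27 gene groups ordered by their median, with the number measured in brackets. Red points rose, blue points fell and grey points did not pass, and the black bar is the median of the group. The tRNA and RNA polymerase III genes lie furthest to the right (median 1.55) and the tubulins and kinesins furthest to the left (median -1.60).

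The genes of the G1 phase moved mainly down, against a median of -0.02 over all genes tested. Of 24 measured E2F, pocket protein and G1 cyclin genes, 16 fell and 6 rose, with a median of -0.93. Besides E2f2 and Ccnd3, the inhibitors of CDK4 and CDK6 Cdkn2d (-3.60 ± 0.17) and Cdkn2c (-2.87 ± 0.10) fell. Among members chosen after their values were seen, the pocket protein gene Rbl1 fell by 2.77 and Ccne2 by 2.58, while Ccnd2 rose by 1.21 and E2f5 by 1.48, so cyclins D2 and D3 moved in opposite directions. The group of growth brakes did not move as a body: 9 of 20 rose and 9 fell. The polo-like kinase genes Plk3 (4.84 ± 0.10) and Plk2 (3.69 ± 0.13) rose, as did the antiproliferative gene Btg3, at least 5.94-fold, and Sesn1, a sestrin that restrains mTORC1, fell by 3.14 ± 0.18. Plk3 was at 11.64, 11.37, 11.66 and 11.71 in stimulated cells and at 6.68, 6.85, 6.80 and 6.70 in unstimulated cells. The stimulated array of mouse 4 read lower for Plk2, at 8.75, than those of mice 1 to 3, which were at 9.21 to 9.25.

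Of 26 tubulins, kinesins and microtubule regulators, 20 fell (the background is 38.5%), 3 rose and 3 did not pass. Their median of -1.60 was the lowest of the groups given here. Kif22, a chromosome-binding kinesin, was at 7.28, 7.07, 6.78 and 7.24 in stimulated cells and at 10.98, 10.87, 10.63 and 10.71 in unstimulated cells. Its stimulated values were all lower, and the change was -3.70 ± 0.10. Kif2c, a kinesin that takes microtubules apart at kinetochores, fell by 3.28 ± 0.11, the spindle assembly factor Tpx2 by 2.65 ± 0.13 and Kif23, a kinesin of the central spindle, by 2.61 ± 0.09. Chosen after its value was seen, Kif15 rose by 1.46. The sequence TTTGAA, the core of the cell cycle homology region found in promoters of G2 and M phase genes, was searched on both strands, so that it is also read as TTCAAA. It stood in 10 of the 19 single promoters of this group (52.6%), against 12.2% of all genes tested, 17.2% of genes that fell by at least 2 and 9.13% of genes that rose by at least 2. It also stood in 14 of the 34 single promoters of the core histone group (41.2%). Of the 10 genes with the motif 9 fell, and of the 9 without it 6 fell. The promoters of Kif22 (chr7:127042371-127042670, minus strand, motifs beginning 215 and 17 bases before the start) and Kif23 (chr9:61946750-61947049, minus strand, motif beginning at base 3 of the transcript) are shown, each in the direction of its gene, to set the motif's place side by side; Kif23 also holds a kappaB match in capitals that begins 150 bases before the start.
Kif22: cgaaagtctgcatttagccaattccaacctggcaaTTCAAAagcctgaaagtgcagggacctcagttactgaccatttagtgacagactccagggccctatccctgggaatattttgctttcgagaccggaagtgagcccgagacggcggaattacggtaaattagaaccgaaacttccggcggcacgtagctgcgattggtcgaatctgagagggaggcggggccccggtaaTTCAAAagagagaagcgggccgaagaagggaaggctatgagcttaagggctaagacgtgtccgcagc
Kif23: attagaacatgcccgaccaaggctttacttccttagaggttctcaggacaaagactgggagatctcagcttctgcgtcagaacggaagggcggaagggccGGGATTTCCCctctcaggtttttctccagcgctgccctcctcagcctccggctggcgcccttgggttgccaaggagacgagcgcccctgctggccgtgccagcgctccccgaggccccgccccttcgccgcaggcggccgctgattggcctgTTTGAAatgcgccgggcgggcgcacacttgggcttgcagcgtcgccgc

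Many core histone genes are made in S phase. The list of this group also names H1 linker histone genes and histone variants such as H3f3a, for which that need not hold. Of 38 measured genes of the group 17 fell (44.7%, against 38.5% of all genes), 6 rose and 15 did not pass. In all 60.5% changed, against 70% of all genes, and the median of -0.05 was near the -0.02 of all genes. The largest falls were of H2A genes, with H2ac15 at -1.67 ± 0.18, H2ac12 at -1.65 ± 0.19, H2ac7 at -1.61 ± 0.20 and H2ac11 at -1.56 ± 0.21, and none of the 6 rises reached 1. With median scaling 0 rose in place of 6, and 3 rose without mouse 2. Histone genes are near-identical copies, so their probes may read each other. The nucleotide enzymes divided, with 11 of 24 higher and 10 lower. Rrm2, a ribonucleotide reductase subunit (-2.22 ± 0.08), and the thymidylate synthase gene Tyms (-1.57 ± 0.07), which make deoxynucleotides, fell. Ctps, the CTP synthase (1.65 ± 0.08), and Ppat, which begins purine synthesis (1.62 ± 0.09), rose.

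Of 22 genes of tRNA modification and RNA polymerase III, 14 rose (63.6%, against 31.5% of all genes) 3 fell and 5 did not pass, with the highest median of the groups given here, 1.55, and with median scaling 6 fell in place of 3. Pus7, a pseudouridine synthase, rose by 2.80 ± 0.13, and the polymerase subunit genes Polr3d and Polr3e by 2.43 ± 0.10 and 2.19 ± 0.09. Trmt61a, the catalytic subunit of the tRNA methyltransferase that acts on adenosine, was at 11.84, 11.99, 11.77 and 11.82 in stimulated cells and at 9.17, 9.21, 9.02 and 9.13 in unstimulated cells, and rose by 2.72 ± 0.07. Its partner Trmt6 rose by 1.42 and Maf1, the repressor of RNA polymerase III, fell by 2.03, both chosen after their values were seen. The Trmt61a promoter at chr12:111677855-111678154 (plus strand) is shown because it holds a cAMP response element, TGACGTCA, beginning 20 bases before the start, and an E-box, CACGTG, the site of MYC and related factors, beginning at base 26 of the transcript.
Trmt61a: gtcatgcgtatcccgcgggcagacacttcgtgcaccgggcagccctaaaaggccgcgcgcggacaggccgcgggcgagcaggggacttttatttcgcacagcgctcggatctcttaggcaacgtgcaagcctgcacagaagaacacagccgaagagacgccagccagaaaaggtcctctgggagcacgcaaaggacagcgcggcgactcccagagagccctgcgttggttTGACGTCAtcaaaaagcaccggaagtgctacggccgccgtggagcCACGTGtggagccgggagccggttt

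Of 13 chaperonin and prefoldin genes, 12 rose, 1 did not pass and none fell. The rises were 0.39 to 1.20, with Pfdn2 at 1.20 ± 0.08, Cct5 at 1.18 ± 0.14 and the mitochondrial chaperonin genes Hspe1 at 1.08 ± 0.16 and Hspd1 at 1.00 ± 0.10. Of 20 genes of mitochondrial protein import, 15 rose, 2 fell and 3 did not pass, with a median of 0.71. The small chaperones of the intermembrane space led: Timm10 rose by 2.87 ± 0.12, Timm8a1 by 1.78 ± 0.08 and Timm9, the partner of Timm10, by 1.57 ± 0.07. Timm10 was at 10.35, 10.34, 10.78 and 10.74 in stimulated cells and at 7.51, 7.40, 7.80 and 8.04 in unstimulated cells. All stimulated arrays were higher, and mice 3 and 4 were above mice 1 and 2 in both conditions. An E-box stood in the promoter of each of Timm8a1, Timm9 and Timm10, and in 3 of the 16 single promoters of the import group (18.8%), against 14.2% of genes that rose by at least 2 and 10.4% of all genes. The share was higher in groups that did not mainly rise, with 9 of 31 single promoters of lysosome and autophagy genes and 5 of 20 of calcium genes. The promoters of Timm9 (chr12:71136626-71136925, minus strand) and Timm10 (chr2:84826771-84827070, plus strand) are shown for comparison, with E-boxes beginning 58 bases and 1 base before the start in Timm9 and at base 29 of the transcript in Timm10. The window and build are those given for Egr2.
Timm9: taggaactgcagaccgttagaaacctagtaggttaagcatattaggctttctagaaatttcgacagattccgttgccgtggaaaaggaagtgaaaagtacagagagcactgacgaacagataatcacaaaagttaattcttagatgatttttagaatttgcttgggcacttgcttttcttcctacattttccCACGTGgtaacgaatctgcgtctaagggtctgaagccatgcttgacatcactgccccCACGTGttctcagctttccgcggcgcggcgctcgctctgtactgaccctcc
Timm10: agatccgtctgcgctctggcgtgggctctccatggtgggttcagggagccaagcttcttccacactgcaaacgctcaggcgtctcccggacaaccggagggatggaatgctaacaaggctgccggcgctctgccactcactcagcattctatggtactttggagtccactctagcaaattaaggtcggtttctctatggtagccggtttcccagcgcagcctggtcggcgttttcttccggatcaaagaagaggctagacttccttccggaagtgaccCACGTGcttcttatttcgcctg

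Translation factors followed the same direction in 23 of 39 members, and 5 fell. Eef1e1, a component of the multi-tRNA synthetase complex, rose by 2.45 ± 0.09 and Eif1a by 1.49 ± 0.08. Eif4e3, an atypical cap-binding protein, fell by 2.70 ± 0.08 and Eif4ebp2, a repressor of cap-dependent translation, by 1.77 ± 0.25. The change of Eif4ebp2 was uneven, at -1.10, -1.41, -1.68 and -2.89 in mice 1 to 4. Chosen after its value was seen, the related repressor gene Eif4ebp1 rose by 1.11. Among enzymes of polyamine, serine and folate metabolism 10 of 14 rose and 1 fell. Shmt1, which moves a carbon unit from serine to folate, was at 9.30, 9.61, 9.36 and 8.97 in stimulated cells and at 5.85, 5.58, 5.83 and 5.91 in unstimulated cells, 11.5-fold higher. The polyamine enzymes Srm and Odc1, spermidine synthase and ornithine decarboxylase, rose by 2.49 ± 0.08 and 1.72 ± 0.08, and Sat1, which acetylates polyamines for export or breakdown, rose by 1.54 ± 0.08. In nuclear transport 19 of 33 rose and 9 fell, and 12 rose with median scaling. The importin gene Ipo4 rose by 2.54 ± 0.11, Kpna6 by 1.61 ± 0.12 and Nup98 by 1.496 ± 0.10, and the membrane nucleoporin gene Nup210 fell by 1.504 ± 0.07. Of 10 exosome genes, whose products degrade RNA from its 3′ end, 6 rose and 1 fell, led by Exosc6 (1.62 ± 0.11) and Dis3 (1.36 ± 0.18).

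Splicing regulators are of interest because the study concerns a splicing choice. Of 33 measured 12 rose, 9 fell and 12 did not pass, so 63.6% changed, against 70% of all genes. Mbnl2 rose by 1.97 ± 0.10 and its relative Mbnl1 fell by 1.25 ± 0.08. Celf1 rose by 1.46 ± 0.08 and the SR protein kinase gene Srpk2 fell by 1.95 ± 0.12. Hnrnpu, whose product is known to act on the alternative exon of MALT1, was named after its value was seen. It was at 5.71, 5.90, 6.35 and 5.57 in stimulated cells and at 5.06, 5.04, 4.92 and 5.00 in unstimulated cells. These are dim values that did not overlap, with a rise of 0.88 ± 0.17. Hnrnpll, a regulator of Cd45 splicing, rose by 0.68 and Hnrnpl fell by 0.66, both also chosen after their values were seen.

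Enzymes that modify chromatin changed in both directions. Of 25 histone and DNA methylation enzymes, 11 rose and 12 fell. Kdm6b, the demethylase of lysine 27 of histone H3, rose 34.0-fold, with 11.54, 11.57, 10.70 and 10.78 in stimulated cells and 6.20, 6.31, 5.85 and 5.87 in unstimulated cells. Mice 1 and 2 were above mice 3 and 4 in both conditions. Dot1l, which methylates lysine 79 of the same histone, was at 9.68, 9.61, 9.80 and 9.55 in stimulated cells and at 6.40, 6.27, 6.35 and 6.40 in unstimulated cells, a rise of 3.31 ± 0.09. Ezh2, the methyltransferase that opposes Kdm6b, fell by 2.39 ± 0.43 and the maintenance DNA methyltransferase Dnmt1 by 2.18 ± 0.12. Chosen after its value was seen, Kdm6a, the close relative of Kdm6b, fell by 0.99. Of 23 deacetylases and acetyltransferases 10 fell, 3 rose and 10 did not pass, and 16 fell with median scaling. Hdac5 fell by 2.09 ± 0.11, Kat2b by 1.46 ± 0.13 and Ep300 by 1.21 ± 0.15, and Sirt2 rose by 1.22 ± 0.10.

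The families of transcription factors also divided. Of KLF and SP genes 81.8% changed, of ETS genes 86.7%, of nuclear receptors 63.6% and of clock genes 64.3%, against 70% of all genes. Of 11 KLF and SP genes 4 rose and 5 fell: beside Klf2, Klf3 fell by 2.29 ± 0.15, and Klf9 and Klf16 rose by 2.78 ± 0.11 and 1.59 ± 0.09. Of 15 ETS genes 7 rose and 6 fell. The repressors Etv6 (2.56 ± 0.11) and Erf (1.80 ± 0.14) and the GABP subunit gene Gabpb1 (2.34 ± 0.10) rose, and Fli1 fell by 1.93 ± 0.22, as did Ets1 by 1.68, the last named after its value was seen. Fli1 fell unevenly, with changes of -1.34, -1.40, -2.15 and -2.81 in mice 1 to 4. Of 11 nuclear receptors 5 rose and 2 fell, and 3 rose with median scaling. Pparg rose by 1.68 ± 0.12, Rara by 1.55 ± 0.12 and Rarg by 0.83 ± 0.20, and Rxrb fell by 1.08 ± 0.08. Of 14 clock genes 7 rose and 2 fell, with 6 lower under median scaling. The period genes Per1 and Per2 rose by 3.15 ± 0.09 and 1.95 ± 0.12, the CLOCK-related Npas2 by 2.47 ± 0.15, and Dbp, an output gene of the clock, fell by 1.84 ± 0.12. Per1 was at 9.81, 9.78, 10.08 and 10.25 in stimulated cells and at 6.83, 6.79, 6.92 and 6.80 in unstimulated cells. Clock and Arntl, the core activators, differed by -0.09 and -0.04 and did not pass.

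Of 27 calcium and ion channel genes 8 rose (29.6%, against 31.5% of all genes), 11 fell (40.7%, against 38.5%) and 8 did not pass. The group as a whole was thus near the background, and what follows is of single members. Orai1, the pore of the store-operated channel, was at 12.08, 12.50, 12.12 and 12.14 in stimulated cells and at 9.19, 9.37, 9.09 and 9.21 in unstimulated cells. Mouse 2 was the highest in both conditions, and the rise was 2.99 ± 0.08 (7.97-fold). Stim1, the calcium sensor that opens that pore, named after its value was seen, was lower at 7.53, 7.51, 7.92 and 7.28 in stimulated cells, against 8.49, 8.83, 8.86 and 8.97 in unstimulated cells, a change of -1.23. The calmodulin-dependent kinase gene Camk2d (2.92 ± 0.11), the plasma membrane calcium pump gene Atp2b1 (2.27 ± 0.13) and Ahnak (1.65 ± 0.10) rose. Levels of different probes are not set against each other here.

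Kinase cascades changed member by member. Of 25 MAP kinase cascade genes 11 rose and 12 fell. The atypical kinase gene Mapk6 was at 12.10, 12.15, 12.23 and 12.16 in stimulated cells and at 8.67, 8.54, 9.08 and 9.02 in unstimulated cells, a rise of 3.33 ± 0.11. In the p38 arm Map2k3 and Mapkapk2 rose by 2.95 ± 0.07 and 2.70 ± 0.10, while the p38 alpha gene Mapk14 fell by 1.46 and the p38 beta gene Mapk11 rose by 1.93, the last 2 named after their values were seen. Map3k8, a kinase upstream of ERK that is held by the NF-kB precursor p105, rose by 2.87 ± 0.09. Mapkapk2 was also 0.95 ± 0.10 higher in isoform A than in mock cells after stimulation (limma, adjusted p = 9.79e-05), where 8.79% of all genes differed. Other named group members passed that comparison too, in both directions. Among them Polr3d differed from mock by 0.61 ± 0.10, Plk3 by 0.60 ± 0.10, Srpk2 by -0.43 ± 0.12 and Kdm6b by -0.34 ± 0.10. Of 30 genes of the PI3K, AKT and mTOR pathway 15 fell and 9 rose. Pik3cd, the main catalytic subunit of lymphocytes, was at 7.35, 7.14, 7.91 and 7.79 in stimulated cells and at 10.83, 10.78, 10.38 and 10.46 in unstimulated cells, a change of -3.07 ± 0.16. Pik3cg fell by 2.86 ± 0.14, and Pik3ip1, an inhibitor of PI3K, was at least 7.57-fold lower and not above background on any stimulated array. Inpp4a, a phosphatase of PI3K products, rose by 2.79 ± 0.09 and was detected on 1 of 4 unstimulated arrays.

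Lipid signalling genes fell in 15 of 27 cases and rose in 6. The sphingosine 1-phosphate branch held both ends of the range: beside Sphk1, its receptor gene S1pr4 fell by 3.20 ± 0.15 and the phosphatase gene Sgpp1, which removes the phosphate, by 2.53 ± 0.08. The sphingomyelin synthase gene Sgms2 rose by 3.00 ± 0.10 and was detected on 1 of 4 unstimulated arrays, while its relative Sgms1, named after its value was seen, fell by 1.67. Among receptors coupled to G proteins 14 of 26 fell and 10 rose. The prostaglandin E2 receptor gene Ptger2 rose by 3.32 ± 0.10. Ccr7, the lymph node homing receptor, fell by 2.97 ± 0.17 and was detected on 1 of 4 stimulated arrays. Cxcr3, the receptor of inflammatory chemokines, rose by 2.62, as named after its value was seen. Of 23 adhesion molecules 12 fell and 8 rose. Selplg, the ligand of selectins, was at 9.37, 8.93, 9.13 and 9.09 in stimulated cells and at 12.92, 13.03, 12.74 and 12.57 in unstimulated cells, 12.8-fold lower. The integrin alpha V gene Itgav was at 9.04, 9.12, 9.55 and 9.23 in stimulated cells and at 5.92, 5.49, 6.34 and 6.08 in unstimulated cells, 9.73-fold higher. It was also 0.87 ± 0.11 higher in isoform A than in mock cells after stimulation (limma, adjusted p = 0.000244), a comparison given for only some of the named genes. Alcam and Itga3 rose by 2.74 ± 0.14 and 2.65 ± 0.10.

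Oxidative stress genes were mixed, with 12 of 28 higher and 9 lower, so 75% changed, against 70% of all genes. Beside Srxn1 and Txnip, the heme oxygenase gene Hmox1 rose by 2.87 ± 0.10 and was detected on 3 of 4 unstimulated arrays, and Gclm, the modifier subunit of glutathione synthesis, fell by 1.56 ± 0.14. Of 40 lysosome and autophagy genes 11 rose, 12 fell and 17 did not pass, so 57.5% changed, and 20 fell with median scaling. The lysosomal channel gene Mcoln2 rose by 3.50 ± 0.09, Atg2a by 2.23 ± 0.08 and Gabarapl1 by 2.20 ± 0.09, and the tetraspanin gene Cd63 was at least 4.90-fold higher.

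The choice of probe decides the sign for a small set of genes. Of 4305 pairs of probes that read the same gene, 1588 changed unequally (36.9%) and 124 changed in opposite directions with each probe past the threshold (2.88%), in 77 of 2201 genes. With median scaling 54 pairs were opposite. Sla, the Src-like adaptor that dampens receptor signalling, had the largest opposite pair. Probe 2 was at 13.88, 13.94, 13.96 and 13.91 in stimulated cells and at 11.16, 11.45, 11.09 and 11.36 in unstimulated cells (change 2.66 ± 0.08), and probe 1 changed by 3.58 ± 0.12. Probe 3 was at 5.02, 5.23, 5.71 and 5.47 in stimulated cells and at 6.56, 6.84, 6.30 and 6.65 in unstimulated cells (change -1.23 ± 0.17), although the array's annotation ties all 3 to the same RefSeq transcript. The survival gene Bcl2 had 6 detected probes that followed their transcript annotation. The 3 annotated to 1 transcript fell by 1.35 ± 0.12, 1.60 ± 0.08 and 1.75 ± 0.09. Of the 3 annotated to the other, 1 rose by 0.92 ± 0.14, 1 rose by 0.58 ± 0.10 and 1 changed by 0.16 ± 0.14 without passing. Nfatc1, the NFAT factor with an autoregulated short isoform, showed the same kind of split. Its probe 1 was at 9.93, 9.9965, 9.65 and 9.52 in stimulated cells and at 6.19, 6.37, 6.47 and 6.61 in unstimulated cells (change 3.36 ± 0.14), and probe 2, annotated to the same transcript, rose by 0.86 ± 0.15. The third probe of that transcript changed by 0.39 ± 0.18 and did not pass (adjusted p = 0.0619). The 3 probes annotated to the other transcript fell by 0.45 ± 0.13, 0.66 ± 0.16 and 0.86 ± 0.10. The brightest of those stood for the gene in the count of falls, and with no background correction a probe with a change of 2.36 stood for it. Where these probes lie in each gene was not tested. Of the genes named above, Ets1 had another probe that rose by 0.51 ± 0.13 (adjusted p = 0.002), and Atg2a had another that fell by 0.51 ± 0.13 (adjusted p = 0.0027).

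**Figure D4:**
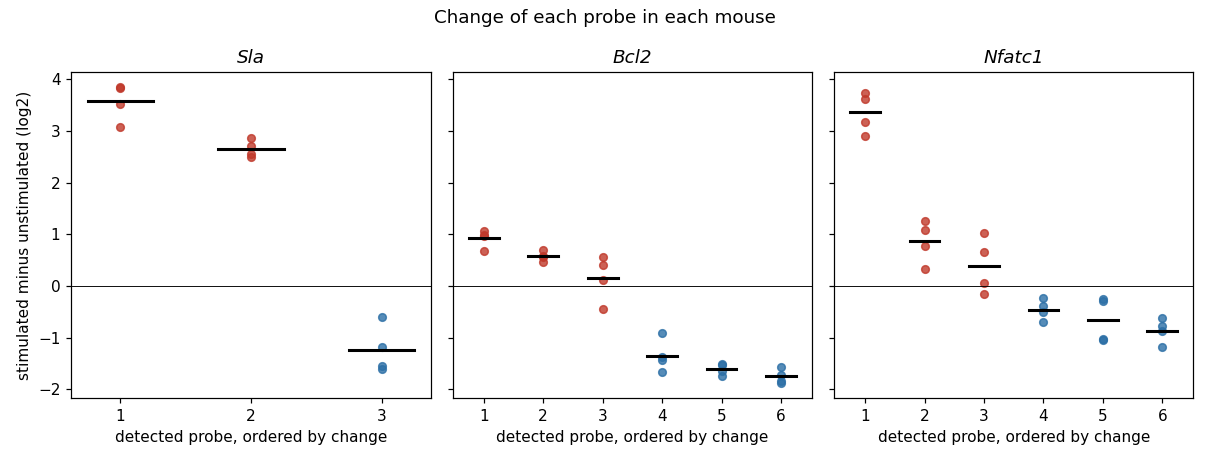
Change of each detected probe of Sla, Bcl2 and Nfatc1 (stimulated minus unstimulated, log2), with 1 point per mouse and a bar at the fitted change. Red probes have a change above 0 and blue probes below 0. Probes 1 and 2 of Sla lie above 2 and probe 3 below 0 in every mouse, and probes 4 to 6 of Bcl2 and Nfatc1 lie below 0 in every mouse.

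Changes correlated between mice over all genes with r from 0.946 to 0.969, and 5754 of the 5939 called genes had the same sign in 4 of 4 mice. The genes whose change varied most had low stimulated values in mice 3 and 4, which also differed from mice 1 and 2 in raw intensity. Bach1, a repressor of oxidative stress genes, was at 8.78, 8.46, 7.17 and 6.37 in stimulated cells and at 5.53, 5.86, 6.34 and 6.41 in unstimulated cells. It was higher in 3 mice and level in mouse 4, with a change of 1.66 ± 0.49 (adjusted p = 0.00796) that was 1.13 without mouse 1 (adjusted p = 0.0919) and 0.39 within mice 3 and 4. Ezh2 was at 8.63, 8.71, 7.53 and 6.18 in stimulated cells and at 9.81, 10.005, 10.57 and 10.22 in unstimulated cells. All 4 mice were lower when stimulated, mouse 4 most. Dek, a chromatin protein, was at 8.38, 8.83, 8.04 and 6.99 in stimulated cells and at 8.93, 9.23, 9.59 and 9.61 in unstimulated cells, a change of -1.28 ± 0.31 that was -0.48 within mice 1 and 2. Ddx6, an RNA helicase of processing bodies, was at 8.82, 8.66, 7.64 and 6.53 in stimulated cells and at 8.79, 8.88, 8.83 and 8.70 in unstimulated cells, and its change of -0.89 ± 0.37 (adjusted p = 0.0478) was -0.09 within mice 1 and 2 and -0.46 without mouse 4. The part of the raw intensity split in these genes was not tested.

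For 286 genes (3.37%) the 95% interval of the change lay within 0.25 of 0. The brightest were the ribosomal protein genes Rplp1, Rpl41, Rpl9, Rpl38, Rps20 and Rps12. Quantile normalization gives every array the same top values, and Rplp1 read the highest of them, 15.26, on 2 of 4 stimulated and 3 of 4 unstimulated arrays. The level of such bright genes is thus partly set by the normalization, and no stability is read from it.

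Genes that rose by at least 2 spanned a median of 17.2 kb of the genome, against 23.5 kb for genes that fell by at least 2, 18.2 kb for genes that did not pass and 20.4 kb for all genes tested. The cAMP response element TGACGTCA stood in 5.02% of the single promoters of the risers, 2.39% of the fallers and 3.07% of all genes, and CCAAT in 32.4%, 46.4% and 40.1%. The E2F sites TTTCCCGC or TTTGGCGC stood in 1.83% of risers, 4.78% of fallers and 3.29% of all. In E2f2 itself 1 RefSeq promoter holds such a site, beginning at base 40 of the transcript. A CArG box stood in 0.457% of risers (1 of 219), 0.957% of fallers and 1.4% of all genes. E2f2 and Egr2 have more than 1 RefSeq start, so neither is counted in these shares. Motifs were searched on both strands and may overlap, and single promoters are those of genes with 1 RefSeq start.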

How the data were processed

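RNA of 16 samples was labelled with biotin and hybridised to 1-colour Illumina bead arrays. The deposited intensity values are unnormalized bead signals per probe, made with GenomeStudio 2011.1 per the submitters' processing notes, with a detection p-value beside each one, per the file headers. A second deposited table holds the authors' background-subtracted intensity values, with column medians of 8.077 to 8.109 on these 8 arrays; its scale was taken as linear and the normalization is not stated. It served as an alternative.

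From the unnormalized values, limma's neqc corrected the background from the detection p-values, added an offset of 16, set the arrays to the same quantiles and took log2 (limma 3.58.1, R 4.3.3). Probes with detection p under 0.05 on at least 4 arrays were kept (12344 of 25697), and the brightest probe stood for each of 8480 genes. The platform annotation named 1 gene for 23978 probes and several for 0, and 23962 matched a gene of GRCm38.p6. The means of 4 groups, with the mouse as a block, were fitted over all 16 arrays with limma's moderated test, 2-sided, with Benjamini-Hochberg adjustment at 0.05. Arrays with the same number in their titles carried the same mouse identifier in the labels, while the replicate numbers in the sample descriptions ran otherwise and were not used, and arrays of a mouse correlated after removal of group means with a mean r of 0.289 (24 pairs), against -0.155 for arrays of different mice (96 pairs). Differences between probes of 1 gene were tested in the same model. The p-values measure the spread left after group means and the levels of the 4 mice are removed. That spread is pooled over all 16 arrays, isoform B and mock included (9 residual degrees of freedom), and moderated across genes. A bound written "at least" compares a group's mean with the lowest signal above background on each dim array. Promoters are those of RefSeq (GRCm38.p6), from 250 bases before to 50 after the start.

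Named are the 12 largest rises outside ligand genes and the 12 largest falls that passed in the same direction in 4 mice, up to 4 members per gene group, the 6 largest opposite probe pairs, the 4 most variable changes and 6 bright level genes. A further gene group is not reported here. The gene groups and all of these rules were chosen with earlier results of these data known. Alternatives were no block, 8 arrays alone, median scaling, no background correction, the authors' table, an offset of 50, other filters, the median over probes, and leaving out mice. Only the model fit was tested on simulated data, made as normalized values with a far smaller share of changed genes or probe pairs than here. Background correction, normalization, the detection filter and the choice of probes were not tested in this way.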

Additional observations from a re-analysis of the deposited data

Results flagged for a closer look

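In 11 of 314 groups of 4 arrays, taken over the named genes, 1 array stood apart from the others by Dixon's criterion, and chance gives about 1 in 20. Levels are normalized log2 intensities. In stimulated cells mouse 2 was high for Tbxa2r (4.59, with the others at 4.35 to 4.37, none above background), Hspd1 (12.65, others 12.40 to 12.44) and Orai1 (12.50, others 12.08 to 12.14), and mouse 4 was low for Plk2 (8.75, others 9.21 to 9.25). In unstimulated cells mouse 1 was high for Erf (5.03, others 4.83 to 4.86) and Nup210 (12.86, others 12.66 to 12.69), and mouse 3 was low for Tbxa2r (8.54, others 8.89 to 8.96) and high for Alcam (5.31, others 4.74 to 4.80). Mouse 2 was low for Srxn1 (6.14, others 6.60) and Rplp1 (15.15, others 15.26, the highest value on the normalized arrays) and high for Rpl38 (15.03, others 14.98) in unstimulated cells. The calls of Srxn1, Tbxa2r, Plk2, Hspd1, Nup210, Orai1 and Alcam were kept with each mouse left out in turn.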

How the results depend on the processing

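The count of 5939 changed genes was within 1.5 times of 5939 under all alternatives run. The labels tie same-numbered arrays to the same mouse; without the replicate block 5634 genes passed, 2512 higher and 3122 lower. With 1 mouse left out, 5601 to 5690 passed, 2514 to 2550 higher and 3087 to 3140 lower. Within mice 1 and 2 alone 5430 passed, and within mice 3 and 4 alone 5282. Median scaling left 5806, of which 32.1% were higher, against 45% in the main result. Opposite probe pairs numbered 54 with median scaling in place of 124, and 92 to 100 with 1 mouse left out. Unequal pairs numbered 3101 in 1679 genes with no filter on dim probes, which adds pairs, in place of 1588 in 994 genes, and 1254 to 1348 pairs in 795 to 849 genes with 1 mouse left out. Nfatc1 turned from -0.86 to 2.36 with no background correction and to 0.83 with the median over probes; in the first another probe stood for the gene, and in the second all its probes counted. Cd4 differed by -0.67 with median scaling (adjusted p = 0.004), and Thy1 by -0.01, where it had fallen by 0.25; the cause was not tested. Ddx6 did not pass with the authors' table (-0.86), with no filter (-0.89), with the median over probes (-0.50), without mouse 3 (-0.79) or without mouse 4 (-0.46). Cd247 and Cd28 also lost their calls under some settings. Probes near background limit the dim genes: where no array of the dim group was above background a bound is given, and the changes of Bdh2, Inpp4a, Sgms2 and Ccr7, each above background on 1 of 4 arrays of the dim group, are uncertain.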
